A study of Homo sapiens with 6 samples.

Results

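The mRNAs of the DNA damage response were examined by RIP-seq (RNA immunoprecipitation with sequencing, here under native conditions), in which an antibody retrieves a protein from a lysate together with the RNAs that accompany it. They comprised 57 mRNAs out of 23013 genes in the deposited table, taken by gene symbol from a list of damage kinases and of homologous recombination, Fanconi, mismatch, end joining and excision repair genes. Each of the 57 symbols matched 1 row, and all 57 passed the filter on low values (a mean of at least 10 normalised counts over the 6 libraries). The libraries came from nuclei of untreated, asynchronous HCT116 cells, an established human colorectal cancer cell line. There were 3 input libraries of nuclear RNA made without antibody and 3 libraries made with an anti-ORC1 antibody (ORC1 IP), and no genotype or treatment differed between them. ORC1 is the subunit of the origin recognition complex that arrives first on chromatin before DNA replication. The comparison asked which RNAs were retrieved with ORC1 from the nucleus.

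Cells detect broken or unreplicated DNA through the kinases ATM, ATR and DNA-PK. ATM and ATR signal to checkpoint kinases, which halt the cell cycle. Breaks are then repaired by homologous recombination, which copies an intact sister chromatid, or by end joining, while crosslinks, mismatches and damaged bases have pathways of their own. Several of these proteins are very large, and many act at replication forks.

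Reads on genes numbered between 13703033 and 17248924 in inputs and between 25134156 and 36008733 in ORC1 IPs. The identity of the cells was checked with epithelial markers, and EPCAM had between 1990.5 and 3499.9 normalised counts and KRT8 between 22866 and 72708 in inputs. The ORC1 IP of replicate 2 stood apart from the other libraries. It lay at -98.9 on the second principal component, against -24.3 to 50.6 for the other 5 libraries. Counts of called mRNAs are therefore given with and without it. Values are gene counts divided by a size factor of the library (normalised counts), and they are not shares of all reads. The size factor was 0.87 for ORC1 IP 1 (26213138 reads) and 1.72 for ORC1 IP 2 (25134156 reads). A higher value is relative to the other genes, and more of 1 RNA cannot be told apart from less of the others. No library of a control antibody was analysed here, and binding to beads or antibody is not separated from retrieval with ORC1 in these libraries. The paper reports that its control IgG yielded no detectable RNA. Nothing in the labels names separate cultures, so p-values measure the spread between these libraries only.

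Transcripts were looked up in GENCODE v44 (GRCh38) by Ensembl identifier, and the canonical transcript of each gene was used. Since the study examined runs of the triplet GAA in RNA, the stretch GAAGAAGAA (3 triplets, searched on the transcript strand only) was counted in each transcript. The study instead ran a motif search over the largest transcript of each gene. Its shares of RNAs with the motif are therefore not comparable with the counts of this exact stretch. It occurred in 13 of the 57 transcripts (22.8%), against 14.7% of the 12537 protein-coding genes tested. The stretches below lie in coding exons and are examples. They include the longest runs, of 5 triplets in XPA and ERCC3, and some runs of 3 triplets. Other runs are not shown, such as a run of 4 triplets in WRN and a run of 3 in BRCA2. Capitals mark the GAA run, and REV3L, with no more than 2 consecutive triplets, is shown for contrast.
RAD50 (chr5:132603423-132603451, plus strand, exon 14): aataatgcctGAAGAAGAAagtgccaaag
BLM (chr15:90751790-90751818, plus strand, exon 4): atagcgaaaaGAAGAAGAAtttggaagaa
FANCM (chr14:45170620-45170648, plus strand, exon 12): gttcttatcaGAAGAAGAAtttaaattat
XPA (chr9:97693673-97693701, minus strand, exon 2): agaagagGAAGAAGAAGAAGAAcagaaaa
ERCC3 (chr2:127289363-127289391, minus strand, exon 6): caaggatGAAGAAGAAGAAGAAgagacac
REV3L (chr6:111389136-111389165, minus strand, exon 7): aaaagcaacggcGAAGAAacagaaatgaaa

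As a group, repair mRNAs were more often higher than lower in ORC1 IP. The median log2 difference between ORC1 IP and input, on the scale of log2(normalised count + 1), was 0.58 (quartiles 0.31 and 1.16), whereas the median of all 16513 tested genes was 0.014. A positive difference was found in 48 of the 57 mRNAs, compared with 50.7% of all tested genes. In 20 mRNAs all ORC1 IPs exceeded all inputs (35.1%, against 12.7% of all tested genes), and in RAD1, RAD51C and FANCF all ORC1 IPs were under all inputs (13.5% of all tested genes). At an adjusted p under 0.05 (limma moderated test with Benjamini-Hochberg adjustment over all tested genes), 9 mRNAs were higher in ORC1 IP, which is 15.8% of the 57 against 2.28% of all tested genes. These were RAD50, BRCA2, MRE11A and PALB2 of homologous recombination, the kinase ATM, the mismatch protein MSH3, the end joining polymerase POLQ, the nuclease ERCC5 and the translesion polymerase subunit REV3L. None was lower at this threshold (1.42% of all tested genes were), and 2, FANCF and RAD51C, were lower at an unadjusted p under 0.05 (9.45% of all tested genes were), where 18 were higher (12.2%). Another tool, edgeR on recovered reads, called 9 higher (2.57% of all tested genes) and 0 lower (1.31%), and DESeq2 called 14 higher (6.6% of the 18988 genes it tested) and 0 lower (3.57%). The threshold of the study (a log2 difference over 1 with an unadjusted p under 0.05) was applied here to the limma fit. By it, 17 mRNAs were higher (10.9% of all tested genes) and 1, FANCF, was lower (7.25%). The study itself used DESeq2 for fold changes and p-values. In DESeq2 here, 24 mRNAs were higher at an unadjusted p under 0.05 with any log2 difference (11.9% of all tested genes).

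**Figure D1:**
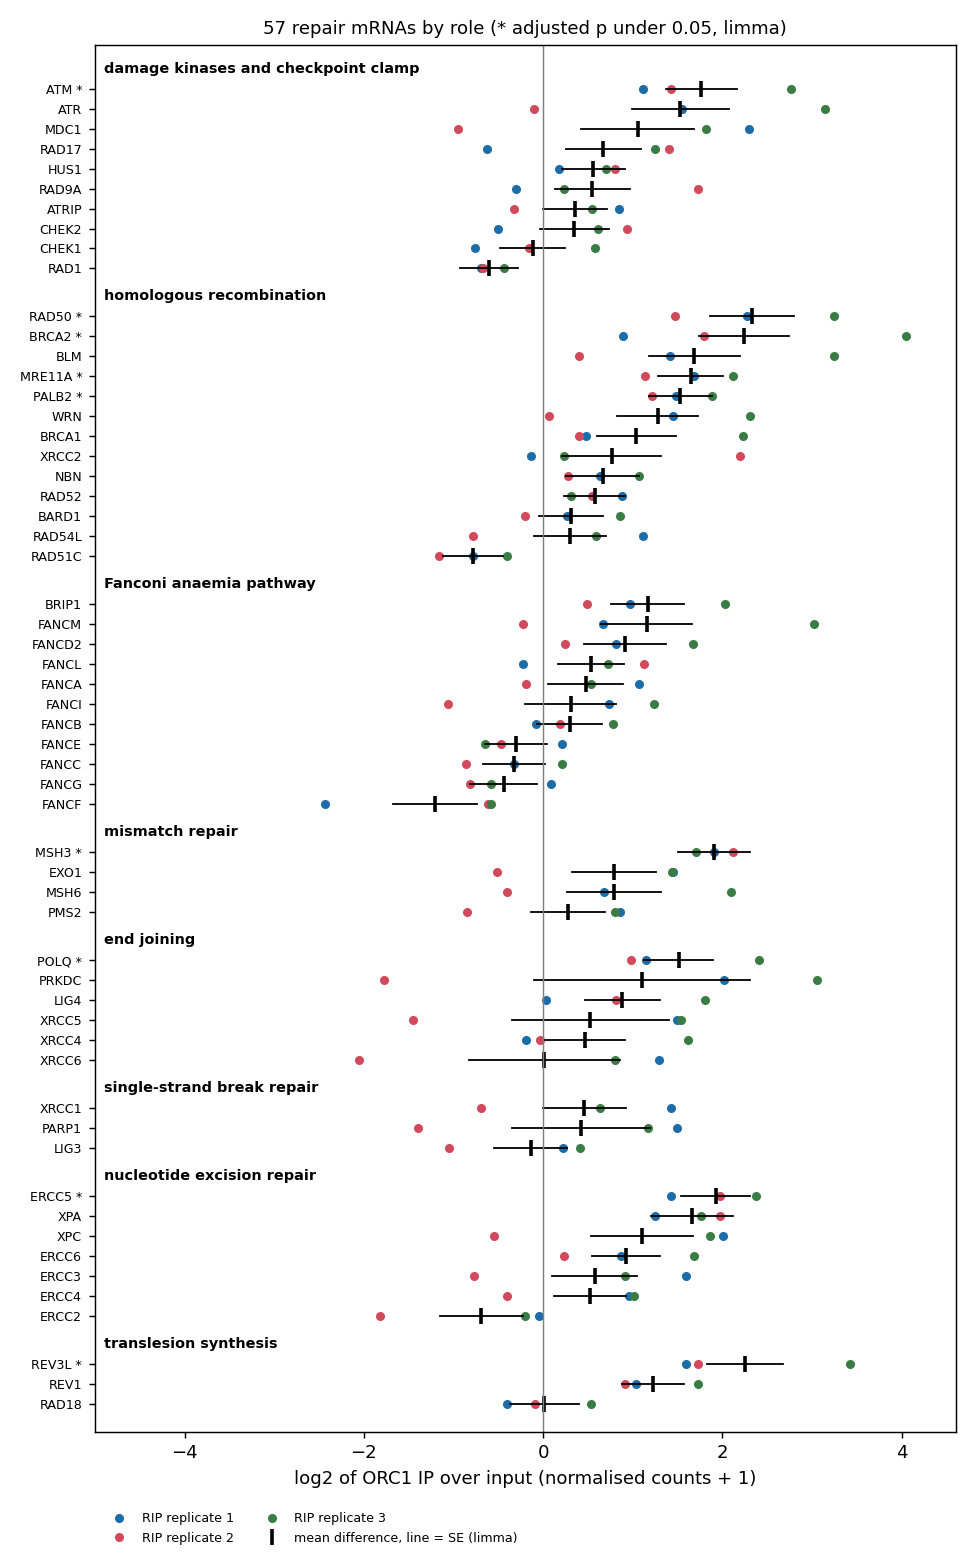
Log2 of ORC1 IP over input for 57 repair mRNAs in rows grouped by role, with 1 point for each RIP replicate, a black tick for the mean difference and a line for its SE (limma). Points of replicate 2 often lie to the left of the others and below 0, as for PRKDC, XRCC5, XRCC6 and PARP1, whereas the 9 mRNAs marked with an asterisk are positive in all 3 replicates.

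The calls depended on single libraries. Without ORC1 IP replicate 2, 28 mRNAs were called higher (11.9% of all tested genes were) and FANCF was called lower (6.38%), and the 28 included all 9 called with 6 libraries. When input replicate 2, input replicate 3 or the third ORC1 IP was left out, none of the 57 was called higher in limma at an adjusted p under 0.05, where 0.291%, 0.0363% and 0.145% of all tested genes were. At an unadjusted p under 0.05, 16, 12 and 13 of the 57 were higher in these fits, where 8.24%, 6.78% and 10.4% of all tested genes were. Without input replicate 1 or ORC1 IP replicate 1, 7 and 5 mRNAs were called.

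**Figure D2:**
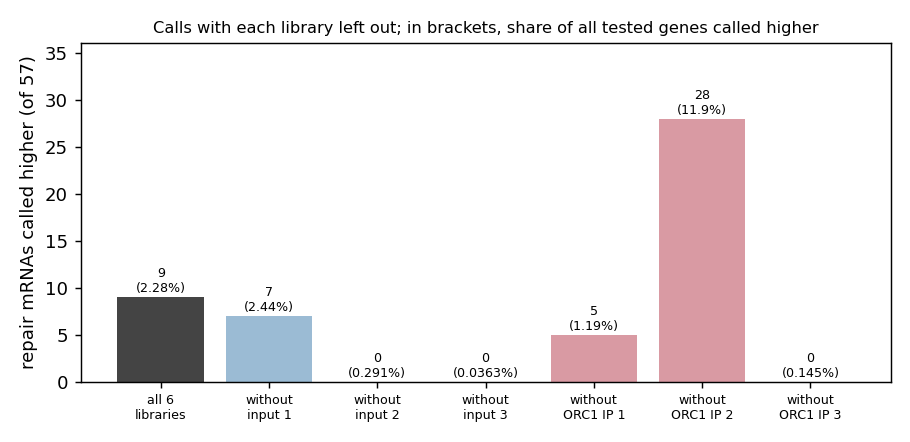
Number of repair mRNAs (of 57) called higher in ORC1 IP at an adjusted p under 0.05 in limma, with all 6 libraries and with each library left out in turn. The bars run from 0 to 28, and the share of all tested genes called higher, printed in brackets, runs from 0.0363% to 11.9%.

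Homologous recombination contributed the most calls, with 4 of its 13 mRNAs higher (7 without ORC1 IP replicate 2, against 11.9% of all tested genes). Its median log2 difference was 1.04. RAD50 (ENSG00000113522, chromosome 5, 132556019 to 132646349, plus strand), the coiled-coil ATPase of the MRN complex that senses broken ends, had 1309, 914 and 495 normalised counts in inputs 1, 2 and 3, compared with 6353, 2542 and 4698 in ORC1 IPs 1, 2 and 3. Every ORC1 IP exceeded every input, with means of 906 ± 407 over the inputs and 4531 ± 1911 over the ORC1 IPs (SD, n = 3). Its log2 difference of 2.33 ± 0.47 (SE; limma adjusted p = 0.0239) was the largest of the 57. MRE11A (ENSG00000020922, chromosome 11, 94415570 to 94493885, minus strand), the nuclease of the same complex, had 166, 188 and 109 in the inputs, compared with 535, 412 and 476 in the ORC1 IPs. The ORC1 IPs lay in a narrow band above all inputs, and the log2 difference was 1.65 ± 0.36 (SE; limma adjusted p = 0.0323). NBN, the third subunit, had a log2 difference of 0.66 ± 0.40 (SE; limma adjusted p = 0.371), so that 2 of the 3 mRNAs of the complex passed.

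BRCA2 (ENSG00000139618, chromosome 13, 32315086 to 32400268, plus strand), which loads the recombinase onto single-stranded DNA, had 971, 537 and 281 in the inputs, compared with 1799.7, 1865 and 4656 in the ORC1 IPs. The groups did not overlap, although ORC1 IP 3 was more than 2 times as high as the other ORC1 IPs. The log2 difference was 2.24 ± 0.51 (SE; limma adjusted p = 0.034). PALB2 (ENSG00000083093, chromosome 16, 23603160 to 23641321, minus strand), which joins BRCA1 to BRCA2, had 554, 455 and 333 in the inputs, compared with 1553, 1062 and 1237 in the ORC1 IPs, and a log2 difference of 1.53 ± 0.35 (SE; limma adjusted p = 0.0364). All ORC1 IPs of PALB2 were above all inputs. BRCA1, the ubiquitin ligase at the head of this chain, had 2145, 1828 and 1174 in the inputs, compared with 2978, 2419 and 5525 in the ORC1 IPs. Its groups did not overlap either, but the smallest ORC1 IP and the largest input differed by little, and the log2 difference of 1.04 ± 0.44 (SE) did not pass (limma adjusted p = 0.192). BARD1, the partner of BRCA1, had a log2 difference of 0.31.

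BLM and WRN, helicases of the RecQ family that unwind recombination intermediates, had log2 differences of 1.69 ± 0.51 and 1.28 ± 0.45 (SE; limma adjusted p of 0.0805 and 0.121). In both, all ORC1 IPs exceeded all inputs, but ORC1 IP 2 was close to the inputs, with 1384 normalised counts for BLM against 1198 in the highest input. RAD52, an annealing protein, had a difference of 0.58, and RAD54L, a motor protein, one of 0.30. XRCC2, a recombinase paralog, had 583, 419 and 288 in the inputs, compared with 532, 1921 and 338 in the ORC1 IPs, so that ORC1 IP 2 was far above the other libraries, and its difference was 0.76. RAD51C, another recombinase paralog, was the exception of the group. It had 1433, 1735 and 1265 in the inputs, compared with 835, 774 and 955 in the ORC1 IPs, with every ORC1 IP under every input, and a log2 difference of -0.78 ± 0.34 (SE; limma adjusted p = 0.198).

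**Figure D3:**
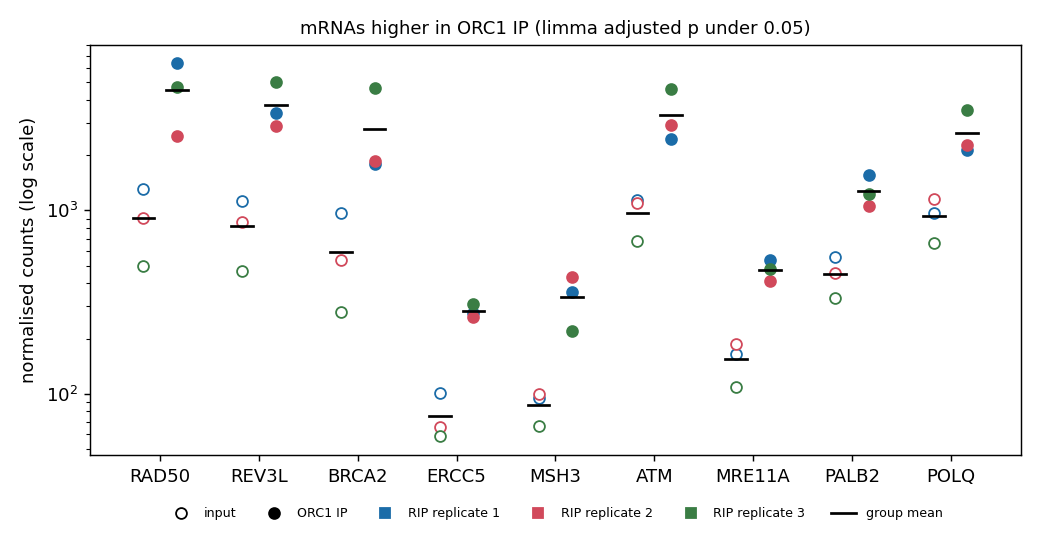
Normalised counts (log scale) of the 9 repair mRNAs called higher in ORC1 IP, with open circles for inputs, filled circles for ORC1 IPs, colours for the RIP replicate and a line at each group mean. In each of the 9 the filled circles lie above all open circles, and input 3 is the lowest input in each.

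Of the 10 mRNAs of damage kinases and the checkpoint clamp, 1 was called higher, and their median log2 difference was 0.56. The count was 3 without ORC1 IP replicate 2, where 11.9% of all tested genes were called higher. ATM (ENSG00000149311, chromosome 11, 108223044 to 108369102, plus strand), the kinase activated by double-strand breaks, had 1135, 1095 and 679 normalised counts in inputs 1, 2 and 3, compared with 2452, 2940.1 and 4612 in ORC1 IPs 1, 2 and 3. The lowest ORC1 IP was more than 2 times the highest input, and the log2 difference was 1.77 ± 0.40 (SE; limma adjusted p = 0.0344). With the RIP replicate as a block, the adjusted p of ATM was 0.0499 in limma and 0.0531 in edgeR. ATR, the kinase of stalled forks, had 1400.2, 2052 and 992 in the inputs, compared with 4092, 1918 and 8775 in the ORC1 IPs. ORC1 IPs 1 and 3 exceeded all inputs, whereas ORC1 IP 2 lay within them, and the log2 difference of 1.53 ± 0.54 (SE) did not pass (limma adjusted p = 0.121), although it did without ORC1 IP replicate 2 (0.00409). ATRIP, which recruits ATR to single-stranded DNA, had a difference of 0.35. The effector kinases CHEK1 and CHEK2 had differences of -0.12 and 0.35. None of the 3 subunits of the 9-1-1 clamp passed, with differences of 0.55 for RAD9A, 0.56 for HUS1 and -0.60 for RAD1. RAD1 had 736, 768 and 711 in the inputs, compared with 454, 482 and 524 in the ORC1 IPs, so that all of its ORC1 IPs were under all inputs, without passing (limma adjusted p = 0.299). RAD17, which loads the clamp, had a difference of 0.67, and MDC1, the scaffold that binds phosphorylated histone at breaks, one of 1.05.

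Each mRNA was placed in 1 role group, and none of the 11 placed in the Fanconi group passed in either direction in limma. BRCA2 and PALB2, both called, were counted under homologous recombination, as were BRCA1, RAD51C and XRCC2, and ERCC4 under nucleotide excision repair. Of the 11, 2 were higher and 1 lower at an unadjusted limma p under 0.05 (12.2% and 9.45% of all tested genes). In edgeR none was called. Without ORC1 IP replicate 2, 3 were called higher (11.9% of all tested genes were). The median of the 11, 0.31, was the lowest of the role groups as drawn here. BRIP1, a helicase that partners BRCA1, was the highest and had 1405, 1073 and 710.3 in the inputs, compared with 2755, 1512 and 2901 in the ORC1 IPs. Its groups did not overlap, and its log2 difference was 1.16 ± 0.41 (SE; limma adjusted p = 0.122). FANCM, the translocase that anchors the pathway on chromatin, had a difference of 1.16 ± 0.51 (SE), with ORC1 IP 2 among the inputs. FANCD2 and FANCI, the pair that is ubiquitinated at crosslinks, had differences of 0.91 and 0.31. Of the subunits of the core ligase complex, FANCL, FANCA and FANCB were at 0.54, 0.47 and 0.30, and FANCE, FANCC and FANCG were at -0.30, -0.33 and -0.44. FANCF, the single-exon subunit of that complex, was the lowest of the 57. It had 191, 143 and 128 in the inputs, compared with 34.5, 93.5 and 85.0 in the ORC1 IPs, with every ORC1 IP under every input, and a log2 difference of -1.21 ± 0.47 (SE; limma adjusted p = 0.157, or 0.0395 without ORC1 IP replicate 2).

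Among the 4 mismatch repair mRNAs, 1 was called, and 3 were without ORC1 IP replicate 2 (11.9% of all tested genes). The called mRNA was MSH3 (ENSG00000113318, chromosome 5, 80654652 to 80876815, plus strand), which recognises insertion loops together with its partner protein. It had 95.0, 99.3 and 66.7 in the inputs, compared with 358, 433 and 219.9 in the ORC1 IPs. Each ORC1 IP was more than 2 times the highest input, and the log2 difference was 1.91 ± 0.40 (SE; limma adjusted p = 0.0275). The 3 replicates were alike, with log2 ratios of 1.90, 2.11 and 1.71 in RIP replicates 1, 2 and 3. MSH6, which recognises base mismatches, had 3019.8, 3065 and 2241 in the inputs, compared with 4832, 2309.6 and 9608 in the ORC1 IPs, and a difference of 0.79 ± 0.53 (SE; limma adjusted p = 0.415). ORC1 IP 2 of MSH6 lay at the level of the lowest input. EXO1, the exonuclease that removes the mismatched strand, had a difference of 0.79. PMS2, an endonuclease subunit, had 491, 673 and 584 in the inputs, compared with 892, 374 and 1022 in the ORC1 IPs, and its value of 0.27 is uncertain because 35.5% of the 50-base stretches of its transcript also occur in transcripts of other genes.

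End joining, with 6 mRNAs, contained both a called mRNA and the most abundant ones. Called mRNAs numbered 3 without ORC1 IP replicate 2, where 11.9% of all tested genes were called higher. POLQ (ENSG00000051341, chromosome 3, 121431431 to 121545988, minus strand), the polymerase of the alternative pathway, had 965, 1149 and 667 in the inputs, compared with 2140.5, 2276 and 3536 in the ORC1 IPs. The groups did not overlap, and the log2 difference of 1.51 ± 0.38 (SE) only just passed (limma adjusted p = 0.0494, or 0.0773 with the RIP replicate as a block). PRKDC, the catalytic subunit of DNA-PK, had 24830.5, 43995 and 25089.8 in the inputs, compared with 100750.0, 12902 and 208653 in the ORC1 IPs. ORC1 IPs 1 and 3 were more than 2 times the highest input and ORC1 IP 2 was under all inputs, and the log2 difference of 1.10 ± 1.21 (SE) did not pass (limma adjusted p = 0.646). XRCC5 and XRCC6 encode the Ku subunits that bind broken ends first. XRCC5 had 17170.2, 18749.6 and 14754 in the inputs, compared with 48170.2, 6848 and 42841 in the ORC1 IPs. XRCC6 had 12372, 17487 and 18055 in the inputs, compared with 30214, 4224 and 31509 in the ORC1 IPs. In both, ORC1 IPs 1 and 3 were above and ORC1 IP 2 was under every input, with log2 differences of 0.52 ± 0.88 and 0.014 ± 0.84 (SE). That of XRCC6 changed sign with total count or upper quartile scaling (-0.20 and -0.039), and 22% of the 50-base stretches of XRCC6 recur in transcripts of other genes. LIG4, the ligase, and XRCC4, its scaffold, had differences of 0.88 and 0.46.

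The same order of libraries was seen for PARP1, the sensor of single-strand breaks, with 9664, 8815 and 8929 in the inputs, compared with 27122, 3349 and 20124 in the ORC1 IPs. Its log2 difference was 0.42 ± 0.77 (SE; limma adjusted p = 0.797). XRCC1, the scaffold of this pathway, had 714, 796 and 853 in the inputs, compared with 1929, 491 and 1326 in the ORC1 IPs, and ORC1 IP 2 was again the lowest library. LIG3, the ligase bound to XRCC1, had 1186, 1620.1 and 1541 in the inputs, compared with 1389, 781 and 2044 in the ORC1 IPs, and a difference of -0.14. None of the 3 mRNAs passed in limma, and none had an unadjusted p under 0.05 (edgeR called none). Without ORC1 IP replicate 2, XRCC1 and PARP1 passed (limma adjusted p of 0.0441 and 0.0242), where 11.9% of all tested genes were higher.

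**Figure D4:**
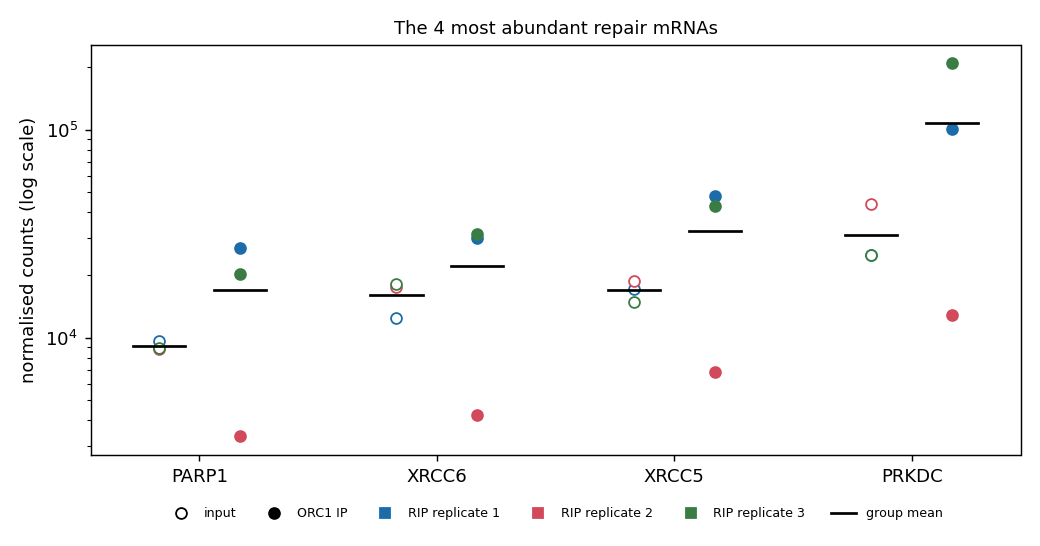
Normalised counts (log scale) of the 4 most abundant repair mRNAs, with open circles for inputs, filled circles for ORC1 IPs, colours for the RIP replicate and a line at each group mean. In each of the 4, ORC1 IPs 1 and 3 lie above all inputs and ORC1 IP 2 lies under all inputs.

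Across the 57 mRNAs, ORC1 IP 2 was under all inputs while ORC1 IPs 1 and 3 were above all inputs in 13 (22.8%). This pattern was held by 7.41% of all tested genes. It was counted on normalised counts, with size factors of 1.72 for ORC1 IP 2 and 0.87 for ORC1 IP 1. It was not counted on shares of all reads, where the position of ORC1 IP 2 can differ. Per kilobase of transcript, PRKDC, PARP1, XRCC5 and XRCC6 had the 4 highest input levels of the 57, from 2297 to 7526 normalised counts per kb, and FANCG followed with 835. The input levels of the 9 called mRNAs ran from 19.4 to 112 normalised counts per kb, with a median of 75.1, against a median of 181 for the other mRNAs. Of all counts, PRKDC alone held 0.130% to 0.204% in inputs, 0.334% and 0.778% in ORC1 IPs 1 and 3, and 0.0884% in ORC1 IP 2. With each input set against the ORC1 IP of the same number, 43, 27 and 51 mRNAs were positive in replicates 1, 2 and 3, and the medians were 0.87, -0.092 and 1.24. These values per replicate rest on the numbers in the labels.

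Of the 7 nucleotide excision repair mRNAs, 1 was called higher (5 without ORC1 IP replicate 2, against 11.9% of all tested genes). Their median log2 difference was 0.93. ERCC5 (ENSG00000134899, chromosome 13, 102845831 to 102875995, plus strand), the nuclease that cuts on the 3′ side of the damage, had 101.3, 66.2 and 58.5 in the inputs, compared with 274, 262 and 308 in the ORC1 IPs. The ORC1 IPs agreed closely and lay above all inputs, and the log2 difference was 1.92 ± 0.39 (SE; limma adjusted p = 0.0238). Its level was the lowest of the 57 per kilobase (19.4 normalised counts per kb in inputs), and 33.0% of its exon bases also belong to the read-through gene BIVM-ERCC5, whose reads were not analysed here. XPA, the scaffold of the incision complex and the shortest of the 57 transcripts (1400 nt), had 177, 64.6 and 73.7 in the inputs, compared with 421, 256 and 253 in the ORC1 IPs. Its groups did not overlap, and its log2 difference of 1.66 ± 0.46 (SE) missed the threshold (limma adjusted p = 0.0616). XPC, which recognises distorted DNA, had a difference of 1.10, with 24.6% of its exon bases shared with XPC-AS1 on the opposite strand. ERCC6, which acts on stalled RNA polymerase, was at 0.93, and ERCC4, the nuclease of the 5′ side, at 0.52. The helicases of transcription factor TFIIH differed in sign, at 0.58 for ERCC3 and -0.69 for ERCC2. ERCC2 had 1169, 1959 and 2097 in the inputs, compared with 1132, 556 and 1821 in the ORC1 IPs, and ORC1 IPs 1 and 2 were under all inputs.

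In translesion synthesis, which copies past damaged bases, 1 of 3 mRNAs was called higher. The count was 2 without ORC1 IP replicate 2, where 11.9% of all tested genes were called higher. REV3L (ENSG00000009413, chromosome 6, 111299028 to 111483715, minus strand), the catalytic subunit of polymerase zeta, had 1123, 865 and 469 in the inputs, compared with 3397, 2873 and 5054 in the ORC1 IPs. The lowest ORC1 IP was more than 2 times the highest input, and the log2 difference of 2.25 ± 0.42 (SE; limma adjusted p = 0.0178) carried the smallest adjusted p of the 57. REV1, the scaffold polymerase that works with it, had a difference of 1.22 ± 0.35 (SE; limma adjusted p = 0.067), with all ORC1 IPs above all inputs. RAD18, the ligase that marks the sliding clamp for this pathway, had 857, 716 and 367 in the inputs, compared with 649, 671 and 534 in the ORC1 IPs, and its difference of 0.015 was far below its SE of 0.38 and changed sign with total count or upper quartile scaling (-0.20 and -0.038).

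All 57 genes matched the annotation, and what the called mRNAs shared was then examined. Their transcripts were long, with a median of 8272 nt against 4196.5 nt for the other mRNAs, and 5 of the 9 had 7 kb or more. Across the 57, the log2 difference and transcript length had a Spearman rho of 0.459, and the rho was 0.331, 0.115 and 0.552 in replicates 1, 2 and 3. These points are genes of the same 6 libraries and are not independent. Among 13 mRNAs with transcripts of 7 kb or more, the median difference was 1.28 and 5 were called, whereas the median of the 1581 tested protein-coding genes of that length was 0.56, with 106 called higher. Among 11 mRNAs under 3 kb the median was 0.46, against -0.26 for 5478 protein-coding genes, and none of the 11 was called in limma. At an unadjusted p under 0.05, 1 of the 11 was higher and 1 lower. Of the 5478, 337 were higher and 834 lower at that threshold. In the 2 classes between, the medians were 0.57 and 0.52 for repair mRNAs and 0.092 and 0.30 for protein-coding genes. The median of repair mRNAs thus lay above that of all protein-coding genes in each of the 4 length classes when the 6 libraries were fitted together, which is a description and was not tested. This held in replicates 1 and 3, but in replicate 2 it held only for 7 kb or more (0.40 against 0.25). In replicate 2 the medians of repair mRNAs were lower under 3 kb (-0.46 against -0.16), at 3 to 5 kb (-0.24 against 0.068) and at 5 to 7 kb (-0.19 against 0.19). LIG3 was the only transcript of 7 kb or more with a negative difference, and 29.1% of its exon bases are shared with RFFL on the opposite strand.

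**Figure D5:**
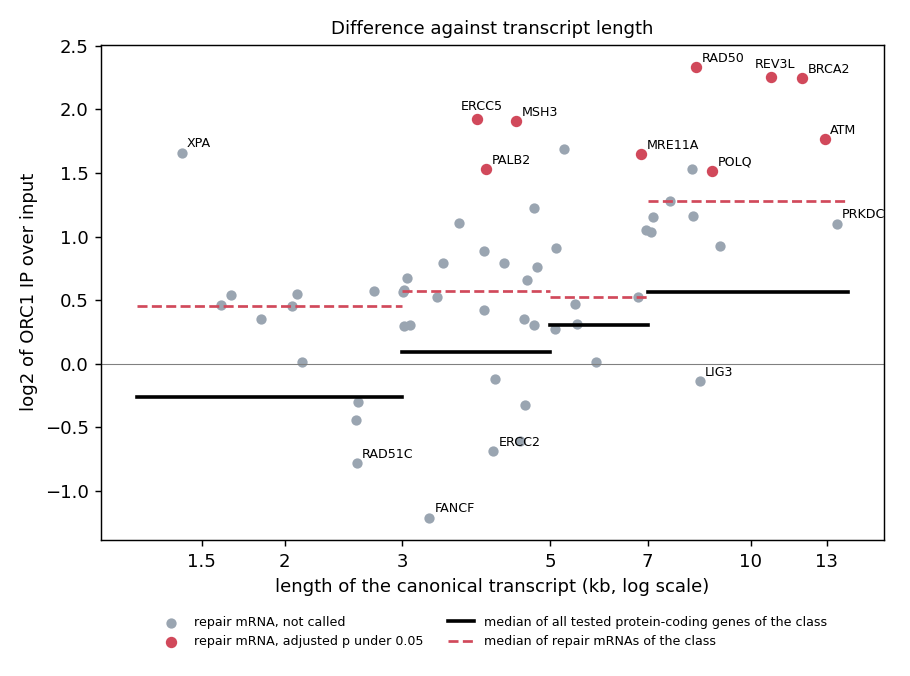
Log2 of ORC1 IP over input against the length of the canonical transcript (kb, log scale) for 57 repair mRNAs, with red points for those called higher, black lines for the median of all tested protein-coding genes in 4 length classes and dashed lines for the median of repair mRNAs. Over all 6 libraries the dashed line lies above the black one in each class, at 1.28 against 0.56 for 7 kb or more.

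GC content and GAA triplets were also set against the difference. The rho between GC content and the log2 difference was -0.365 across the 57, and it was 0.127, -0.463 and -0.453 in replicates 1, 2 and 3. The 20 mRNAs with 45% GC or more had a median of 0.39, and the 17 under 40% had one of 0.88. All 13 mRNAs with GAAGAAGAA had a positive difference, with a median of 0.93, against 35 of 44 and 0.56 for those without it. Among protein-coding genes, 76.6% of those with the stretch and 47.2% of those without were positive. The stretch was not a common feature of the called mRNAs, since RAD50 and BRCA2 held it and the other 7 did not, and XPA and ERCC3, with runs of 5 triplets, were not called. Transcripts with the stretch were also longer, with a median of 5093 nt against 4196.5 nt, and the part of GAA apart from length was not tested. After each library was corrected for transcript length and GC content, 43 of the 57 differences were positive (BARD1, ERCC4, FANCI, PMS2 and RAD18 had turned negative), the median was 0.42, and 1 mRNA, ERCC5, was called (limma adjusted p = 0.0479, with 0.741% of all tested genes called higher).

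Reads of some of these genes could not be assigned with certainty. The paper names a stranded library kit, but no source used here gives the strand setting of the counting. Exon bases shared with a gene on the opposite strand made up 22.7% of MSH6 (FBXO11), 19.9% of RAD54L (LRRC41), 19.6% of FANCA (ZNF276) and 11% of REV1 (EIF5B). On the same strand, 76.9% of the exon bases of RAD50 also belong to a longer gene model (ENSG00000283782), which has no values in these data. For ATRIP, 26.7% of the exon bases belong to TREX1. The overlaps are those of GENCODE v44 on GRCh38, whereas the authors counted reads on hg19. Stretches of 50 bases that recur in transcripts of other genes made up 9.19% of CHEK2 and 8.0% of FANCD2.

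Genes of the same pathways outside these 57 were taken from a list of 90, of which 89 passed the filter. Of these, 6 were called higher and none lower in limma (2.28% and 1.42% of all tested genes). At an unadjusted p under 0.05, 26 were higher and 5 lower (12.2% and 9.45% of all tested genes). In edgeR, 5 were called higher and none lower (2.57% and 1.31%). The difference was positive in 60 (67.4%, against 50.7% of all tested genes), and the median was 0.44. The 5 largest called differences were those of RBBP8, which starts resection of broken ends (2.36 ± 0.42, SE; limma adjusted p = 0.0145), SMC6 and SMC5, which form a repair complex related to cohesin (2.23 and 1.91), the glycosylase MBD4 (2.07) and PARP2, a relative of PARP1 (1.76). RBBP8 had 1165, 506 and 453 in the inputs, compared with 4007, 3174 and 2870.0 in the ORC1 IPs, and all of its ORC1 IPs exceeded all inputs. The lowest difference in the list was that of NTHL1, another glycosylase, at -1.09 ± 0.42 (SE; limma adjusted p = 0.155). Without ORC1 IP replicate 2, 25 were called higher and 2 lower (11.9% and 6.38% of all tested genes).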

How the data were processed

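Native RIP was performed by the authors on HCT116 nuclei, and stranded total RNA libraries depleted of ribosomal RNA were sequenced. Per the paper's methods, the authors trimmed reads with Trimmomatic, mapped them with STAR to hg19, removed reads on GL contigs and counted genes with featureCounts. The deposited values are a signal, namely counts divided by DESeq2 size factors, and 100% of them were whole reads within a tolerance of 0.001 once multiplied back. Deposited columns of the authors' comparison (mean, log2 fold change, SE, statistic and p-values) were not used. Genes with a mean of at least 10 (16513 of 23013) were tested with limma 3.58.1 in R 4.3.3, with a trend, on log2(value + 1), without a replicate block. On recovered reads, edgeR 4.0.16 called 425 genes higher and 216 lower, and DESeq2 1.42.0 was also run. Scripts were tested on simulated data that held no outlying library, so that test does not cover the effect of ORC1 IP replicate 2. The labels assign 1 input and 1 ORC1 IP to each RIP replicate, without saying whether they share a preparation. Their deviations from the group means correlated at -0.322, -0.240 and 0.215, and fits with the replicate as a block are given where they change a call. Members and lists were chosen with earlier results of these data known. Every member is named, and values per library are given for called members, the extremes of each role group and ATM, ATR, BRCA1, BRCA2, PRKDC, MSH6, PARP1, XRCC5 and XRCC6. Outside genes are named for the 5 largest called differences, and NTHL1 and the values per library of XRCC2, XPA and RBBP8 were chosen after they were seen. Annotation came from GENCODE v44 on GRCh38, matched by gene identifier for 16062 tested genes.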

Additional observations from a re-analysis of the deposited data

How the results depend on the processing

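The number of mRNAs called higher, 9, became 14 with DESeq2, 2 with total count scaling, 2 with limma without the trend, 1 after correction for transcript length and GC and 0 with that correction and the replicate block (12 at an unadjusted p under 0.05; DESeq2 was not run with that correction). It was 8 with the replicate block alone in limma, where POLQ was lost, 7 in edgeR with the replicate block, where ATM and POLQ were lost, and 8 or 9 with the other pseudocounts, filters, TMM or upper quartile scaling and edgeR. With 1 library left out it ranged from 0 to 28, and the number called lower from 0 to 1. By the threshold of the study, 17 higher in limma became 9 with the correction, with or without the block. With 1 library left out, the 17 became 12 to 28. In DESeq2, 24 were higher at an unadjusted p under 0.05 with any log2 difference. The 1 lower by the threshold of the study became 2 with the correction, with or without the block. It became 0 with total count scaling and with the block in edgeR, and 0 to 2 with 1 library left out. The median difference of 0.58 lay between 0.36 (total count scaling) and 0.74 (DESeq2), and between 0.52 and 0.97 with 1 library left out. Total count scaling moved the median of all genes from 0.014 to -0.19. With the GC and length correction, with or without the block, the sign turned for BARD1 (-0.20), ERCC4 (-0.070), FANCI (-0.078), PMS2 (-0.047) and RAD18 (-0.50). RAD18 also turned with DESeq2 (-0.065), edgeR (-0.051), total count (-0.20) and upper quartile scaling (-0.038), and XRCC6 with the latter 2 scalings (-0.20 and -0.039). With 1 library left out, values ranged from -0.33 to 0.10 for CHEK1, -0.069 to 0.77 for FANCI, -0.46 to 0.23 for LIG3, -0.15 to 1.36 for PARP1, -0.35 to 0.26 for RAD18 and -0.48 to 0.97 for XRCC6. The causes were not tested. Whether input and ORC1 IP of a RIP replicate share a preparation is not known. Without the correction, the block changed no call of the 7 called mRNAs other than ATM and POLQ in limma or edgeR. With the correction, the block removed the call of ERCC5. Of all tested genes, 376 called higher became 1254 with DESeq2, 87 with total count scaling, 143 without the trend and 119 with the correction. For repair genes outside the 57, 6 became 13 with DESeq2, 1 with total count scaling, without the trend or with the correction, and 0 to 25 with 1 library left out. The lowest read count of a member in a library was 30, which limits the precision of low genes.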
